A study of Mus musculus with 6 samples.

Results

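Glutathione S-transferases are the enzymes that attach glutathione to reactive compounds, and 10 of their genes were compared between vehicle and stearic acid in mouse macrophages. The genes are Gsta3, Gstm1, Gstm2, Gstm4, Mgst1, Mgst2, Mgst3, Gstp1, Gsto1 and Gstk1, which are 10 of the 36333 genes in the deposited tables. They were chosen by a list of gene names drawn up when their TPM values in both groups were already known. Their differences between the groups are therefore given as a description, without a test. All 10 had a mean of at least 1 TPM over the 6 libraries (TPM, a length-corrected share of the library's transcripts that sums to 1e+06), which is the filter used for the fit of all genes. Each also had a vehicle mean above that value.

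The 6 polyA RNA libraries came from bone marrow derived macrophages of C57BL/6 mice without any engineered allele named in the labels. The cells were matured for 7 days in M-CSF at 10 ng/mL, replated at 250000 per well and exposed for 24 h. The 3 vehicle libraries are from cells given ethanol and 3 stearic acid libraries are from cells given the saturated fatty acid at 100 µM. Replicates carry numbers, but whether they are separate animals or cultures is not said, so each p-value weighs a difference only against the scatter of these libraries, some or all of which may be technical. Depth, recovered from the steps of low RPKM values (reads per kilobase of transcript, scaled to library size), ranged from 58.1 M to 80.8 M reads or read pairs (M, 1e+06), so 1 TPM stood for 19.1 to 27.7 reads per kilobase of transcript.

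Glutathione S-transferases join the tripeptide glutathione to electrophilic compounds, which makes these more soluble and ready for export. Cytosolic enzymes fall into classes named alpha, mu, pi, sigma, theta, omega and zeta, and a kappa enzyme sits in mitochondria and peroxisomes. The microsomal enzymes (Mgst genes) are unrelated membrane proteins that act on lipid hydroperoxides and, in part, on leukotrienes. In many tissues the transcription factor NRF2 drives several of these genes through an antioxidant response element in their promoters.

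With stearic acid 6 of the 10 transcripts were higher in every library than in any vehicle library, 2 were lower in every library and 2 overlapped between the groups. The alpha-class Gsta3 differed most, at 44.2 ± 10.5 TPM against 3.14 ± 0.203 TPM in vehicle (SD, n = 3 per group), a 14.05-fold difference. Gstm1, Mgst1, Gstm2, Gstp1 and Gsto1 were 2.20-fold, 1.59-fold, 1.88-fold, 1.47-fold and 1.36-fold higher. In such bulk samples a change in the number of cells of a type and a change in RNA per cell cannot be told apart. Gstk1 and Gstm4 were at 0.693 and 0.813 of the vehicle level. In the fit of all genes the same 6 were called higher and the same 2 lower. Over all 11551 tested genes 12.8% were called higher and 11.9% lower, and 22.8% and 21.7% did not overlap in those directions. The genes were chosen with this contrast known, so nothing is read from these counts. The median difference on the log2(TPM + 1) scale was 0.49 over the 10 genes and -0.03 over all tested genes.

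The promoter stretches that hold a match to a searched motif are shown first, since they are what the members' sequences offer beside their levels. RefSeq windows (GRCm38.p6) of 250 bases before to 50 after a start were found for all 10 genes, 13 windows in all. They were searched on both strands for the antioxidant response element core TGACNNNGC, the AP-1 motif TGANTCA and the CEBP-ATF motif TGATGNAAT. The first 2 can overlap each other. Each stretch below covers bases -150 to -1 before the start, 5′ to 3′ on the gene's strand, with the match in capitals.
Gsta3, chr1:21240435-21240584, + strand: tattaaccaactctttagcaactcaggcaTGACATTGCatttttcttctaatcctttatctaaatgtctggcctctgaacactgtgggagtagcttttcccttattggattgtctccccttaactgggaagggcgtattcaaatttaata
Mgst1, chr6:138140377-138140526, + strand: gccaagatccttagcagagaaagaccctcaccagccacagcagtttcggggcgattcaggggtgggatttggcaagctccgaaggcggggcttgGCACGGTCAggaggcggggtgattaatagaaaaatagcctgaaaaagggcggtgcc
Gstp1, chr19:4037913-4038062, - strand: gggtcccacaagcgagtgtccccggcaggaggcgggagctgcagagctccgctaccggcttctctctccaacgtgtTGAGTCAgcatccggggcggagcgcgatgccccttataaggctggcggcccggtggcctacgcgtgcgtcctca
Mgst2, chr3:51661029-51661178, + strand: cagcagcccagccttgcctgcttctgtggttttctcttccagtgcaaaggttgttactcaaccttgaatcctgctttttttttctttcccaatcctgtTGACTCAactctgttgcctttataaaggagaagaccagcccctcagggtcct

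Gsta3 held the antioxidant core at bases -121 to -113, and the first Mgst1 window held it on the opposite strand at -56 to -48. The core was thus in 2 of the 13 windows, while 12.4% of all 32851 RefSeq windows held it. An AP-1 match stood at -74 to -68 in Gstp1 and at -52 to -46 in Mgst2, and 7.81% of all windows held one. The Mgst2 window lies inside the annotated span of that gene, before a downstream start. None of the 13 windows matched the CEBP-ATF motif, against 0.965% of all windows. A match is a run of letters and no evidence of binding, and enhancers farther away were not searched. Gstm1, which had the second largest difference, held none of the 3 motifs in either of its windows.

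The members differed widely in level before any treatment. In vehicle the order of mean level was Mgst3 (258 TPM), Gsto1 (137 TPM), Gstm1 (136 TPM), Mgst1 (66.1 TPM), Gstp1 (37.2 TPM), Gstk1 (25.8 TPM), Gstm4 (11.8 TPM), Mgst2 (6.41 TPM), Gsta3 (3.14 TPM) and Gstm2 (1.17 TPM). Only Gsto1 and Gstm1 overlapped among neighbours in that order. With stearic acid Gstm1 stood first at 300.5 TPM, and its range overlapped that of Mgst3 at 271 TPM. Gsta3 stood in place 9 in vehicle and in place 6 with stearic acid, where its range overlapped that of Gstp1. The plot of levels by library shows each value on a log axis.

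**Figure D1:**
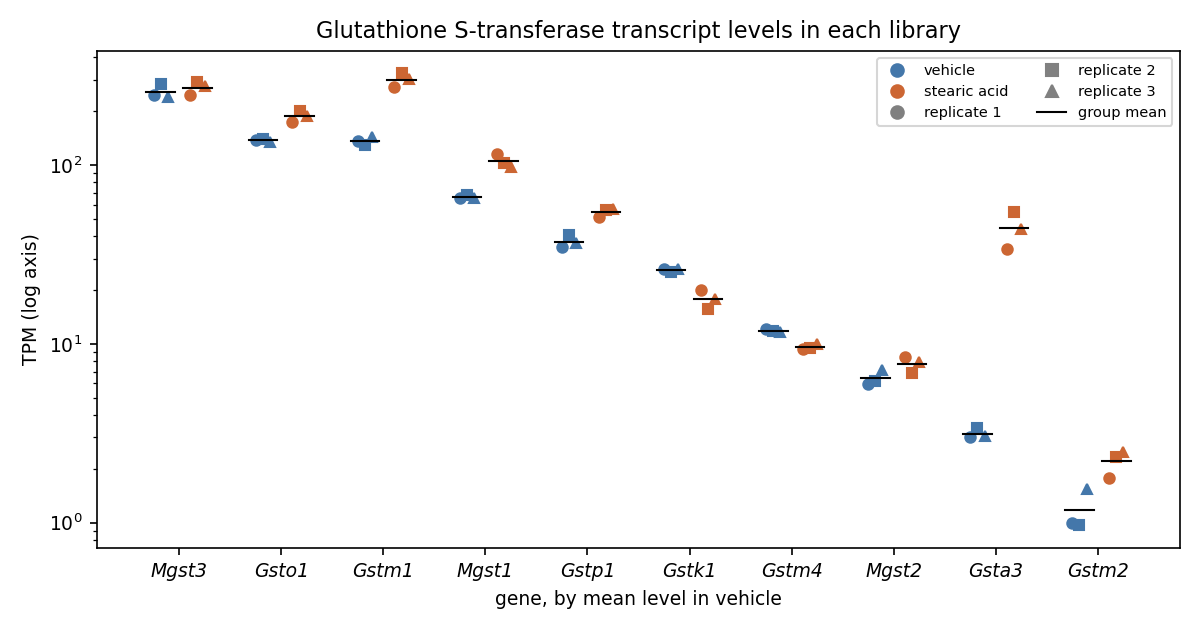
TPM of the 10 genes in each library on a log axis, ordered by mean vehicle level; blue points are vehicle, orange points stearic acid, shapes are replicate numbers and black lines group means. The orange Gsta3 points sit between 34.0 and 54.9 TPM, all above the blue points at 3.00 to 3.38 TPM, whereas the Mgst3 points of both groups overlap.

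Gsta3 (NCBI gene 14859, chromosome 1, 21240565 to 21265575, GRCm38) is an alpha-class enzyme known in mice for its action on the reactive epoxide of aflatoxin. Its level was 3.00, 3.38 and 3.06 TPM in vehicle replicates 1 to 3 and 34.0, 54.9 and 43.7 TPM in stearic acid replicates 1 to 3. The groups lay far apart, and the spread among stearic acid libraries was wider than among vehicle libraries. The difference was 3.42 on the log2(TPM + 1) scale (SE 0.15), the scale of every log2 difference below, which understates changes of low genes. These levels stand for roughly 85 to 131 reads per vehicle library and 1093 to 2206 per stearic acid library. On the log2(RPKM + 1) scale the difference was 2.97, because the added 1 weighs more on smaller values.

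The 3 other alpha-class genes analysed, Gsta1, Gsta2 and Gsta4, were below 1 TPM in every library. Gsta1 was listed at 0 in all vehicle libraries and in stearic acid replicate 1, and at 0.0843 and 0.230 TPM in replicates 2 and 3. Of the 50-base words in their transcripts, 89.7% of Gsta1 and 64.2% of Gsta2 also occur in other genes. Gsta2 was listed at 0 in all 6 libraries, where 3 reads would correspond to 0.124 to 0.181 TPM (counting error only). Gsta4, which acts on the lipid aldehyde 4-hydroxynonenal, was at 0.226, 0.0391 and 0 TPM in vehicle and at 0.567, 0.454 and 0.537 TPM with stearic acid. About 12 or 13 reads lay behind each of the latter values. The Gsta4 groups did not overlap, and a two-sided exact permutation test gave p = 0.1 (with 3 libraries a group no smaller p can be reached; 0.8 adjusted over the 8 low relatives that had a value).

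Mu-class genes lie side by side on chromosome 3, and they did not move together. Gstm1 (gene 14862, 108012250 to 108017973), the main mu enzyme of these cells, was at 137, 129 and 143 TPM in vehicle and at 273, 326 and 302 TPM with stearic acid. Every stearic acid value was above every vehicle value, and the difference was 1.13 on the log2 scale (SE 0.08). Gstm2 (gene 14863, 107981702 to 107986420), a second mu enzyme, was at 0.998, 0.967 and 1.55 TPM in vehicle and at 1.77, 2.32 and 2.50 TPM with stearic acid. Its groups came close, with vehicle replicate 3 at 1.55 TPM and stearic acid replicate 1 at 1.77 TPM. Only some 27 to 68 reads per library stood behind Gstm2, whose log2 difference was 0.56 (SE 0.14), 0.87 with 0.1 TPM added in place of 1, and 0.34 on the log2(RPKM + 1) scale.

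Gstm4 (gene 14865, 108030571 to 108045179), the neighbour of Gstm1 at a distance of 12.6 kb, was at 12.1, 11.8 and 11.7 TPM in vehicle and at 9.41, 9.50 and 9.95 TPM with stearic acid. All stearic acid values were below all vehicle values, by 0.27 on the log2 scale on average (difference -0.27, SE 0.07). The ratio of Gstm1 to Gstm4 within a library was 11.4, 11.004 and 12.2 in vehicle and 29.1, 34.3 and 30.4 with stearic acid. This ratio does not depend on how libraries are scaled to each other. Gstm5, at the far end of the cluster, was at 16.3 ± 0.404 TPM in vehicle and 15.4 ± 0.475 TPM with stearic acid. It did not pass (log2 difference -0.08, 95% interval -0.24 to 0.08, limma adjusted p = 0.42). Gstm3, Gstm6 and Gstm7, between Gstm5 and Gstm2, stayed at or below 0.295 TPM in every library.

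**Figure D2:**
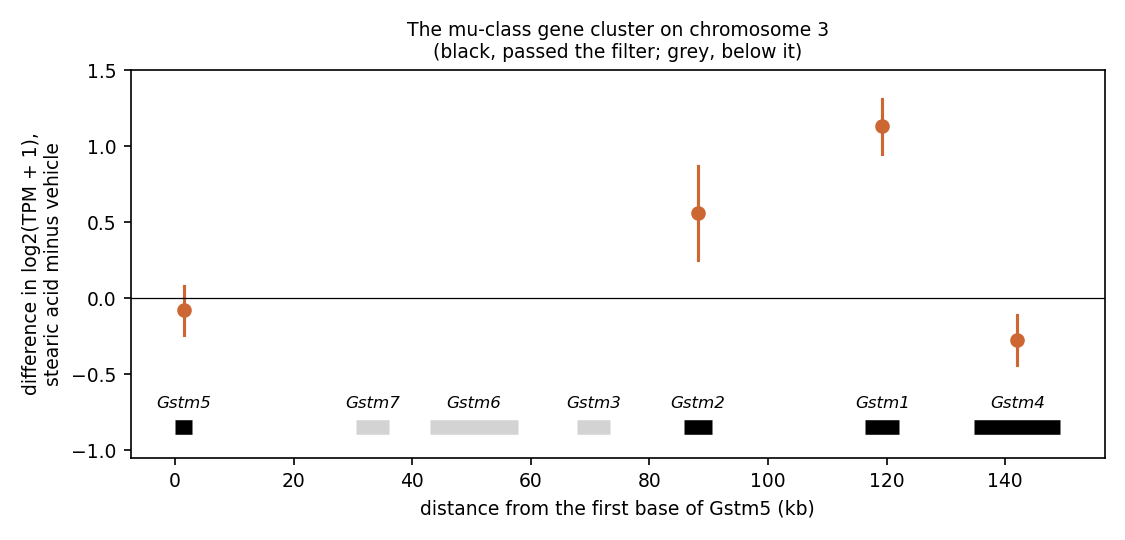
Mu-class genes by distance from the first base of Gstm5 in kb, drawn to scale, with the difference in log2(TPM + 1) (points) and its 95% interval (lines) for the 4 genes that passed the filter. Gstm1 and Gstm2 lie above 0, Gstm4 lies below it and the interval of Gstm5 spans it.

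Copies of the mu and pi genes limit how exactly reads can be assigned. Of the 50-base words in the longest-coding GENCODE transcript of Gstm1, 33.0% also occur in other genes, among them Gstm3, Gstm2-ps1 and Gm8834. For Gstm2 the share was 9.36%, and Gstm1, Gm12499 and Gm6665 were among the genes it shared words with. For Gstp1 the share was 62.3%, all with Gstp2 and Gstp-ps, and the coding sequences of Gstp1 and Gstp2 are 98.1% identical. None of the 50-base words of the other 7 members occurs elsewhere. The authors' rule for reads that match several genes is not given in the sources used here, so the levels of Gstm1, Gstm2 and Gstp1 carry that uncertainty. Gstm3 was at or below 0.0435 TPM and Gstp2 at or below 0.209 TPM in every library as deposited.

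Gstp1 (gene 14870, chromosome 19, 4035411 to 4037912), the pi-class enzyme, is known to bind stress kinases as well as to conjugate glutathione. It was at 34.7, 40.4 and 36.5 TPM in vehicle and at 51.0, 56.0 and 56.4 TPM with stearic acid. The groups did not overlap, and the log2 difference was 0.54 (SE 0.08). Gsto1 (gene 14873, chromosome 19, 47854973 to 47864790), the omega-class enzyme, reduces mixed disulfides with glutathione and is a known target of compounds that block IL-1β release. Its level was 137, 139 and 135 TPM in vehicle and 174, 199 and 187 TPM with stearic acid. These groups were also apart, by 0.44 on the log2 scale (SE 0.07). Gsto2, the other omega-class gene, was at 0.815 ± 0.147 and 0.780 ± 0.209 TPM.

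Gstk1 (gene 76263, chromosome 6, 42245935 to 42250441), the kappa-class enzyme of mitochondria and peroxisomes, went the other way. It was at 26.1, 25.1 and 26.1 TPM in vehicle and at 20.1, 15.6 and 17.9 TPM with stearic acid. No stearic acid value reached the vehicle range, and the log2 difference was -0.51 (SE 0.09). The theta-class Gstt3, which was not among the 10, was lower in the same way, at 26.6 ± 1.82 against 19.6 ± 4.79 TPM. Gstt3 did not pass (log2 difference -0.45, SE 0.15, limma adjusted p = 0.060). It did without stearic acid replicate 1 (limma adjusted p = 0.00054), with quantile normalization (0.048) and with the replicate number as a block (0.0205). In all other alternatives Gstt3 did not pass (limma adjusted p from 0.057 to 0.19). Of the 50-base words of Gstt3, 26.0% also occur in Gm20441. Stearic acid replicate 1 was the library nearest to vehicle in both Gstk1 and Gstt3.

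The 3 microsomal genes gave 3 different pictures. Mgst1 (gene 56615, chromosome 6, 138140527 to 138156755), an abundant enzyme of the endoplasmic reticulum and outer mitochondrial membrane, was at 65.2, 68.0 and 65.1 TPM in vehicle. With stearic acid it was at 115, 102 and 97.3 TPM, all above vehicle (log2 difference 0.65, SE 0.08). Mgst2 (gene 211666, chromosome 3, 51636912 to 51682675), which can make leukotriene C4, was at 5.93, 6.17 and 7.14 TPM and at 8.42, 6.85 and 7.93 TPM. Stearic acid replicate 2 lay inside the vehicle range, and the log2 difference of Mgst2 was 0.24 (95% interval 0.00 to 0.47). Mgst3 (gene 66447, chromosome 1, 167371966 to 167393841), a glutathione-dependent peroxidase of lipid hydroperoxides, was at 247, 284 and 241 TPM and at 245, 291 and 277 TPM. Its groups overlapped throughout, and the 95% interval of the log2 difference ran from -0.13 to 0.27.

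**Figure D3:**
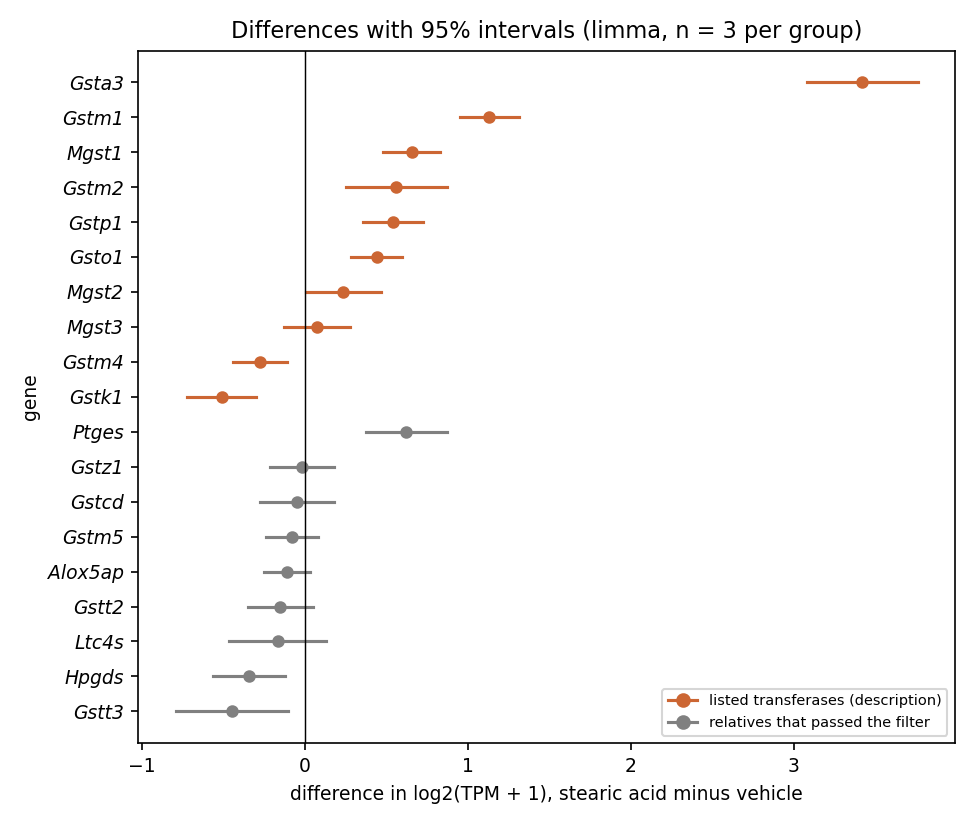
Differences in log2(TPM + 1), stearic acid minus vehicle, with 95% intervals from the limma fit (n = 3 per group), for the 10 listed genes (orange) and the 9 relatives that passed the filter (grey). Gsta3 stands at 3.42 and Gstm1 at 1.13, while among the relatives the point of Ptges alone lies above 0, at 0.62.

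Summed over the 10 genes, transferase transcripts came to 670, 708 and 670 TPM in vehicle and to 932, 1064 and 1002 TPM with stearic acid. The group means were 683 ± 22.1 and 999 ± 65.9 TPM, a ratio of 1.46. Gstm1 accounted for 50.3% of the summed increases in mean level, Gsto1 for 15.2%, Gsta3 for 12.6% and Mgst1 for 11.9%. Gsta3 thus had the largest ratio and a modest part of the added transcripts. Its share of the sum was 0.460 ± 0.0147% in vehicle and 4.39 ± 0.757% with stearic acid. The share of Gstm1 was 20.004 ± 1.57% and 30.04 ± 0.652%, and that of Mgst3 was 37.7 ± 2.13% and 27.1 ± 0.704%. Gstp1 kept a like share, at 5.44 ± 0.258% and 5.46 ± 0.182%.

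**Figure D4:**
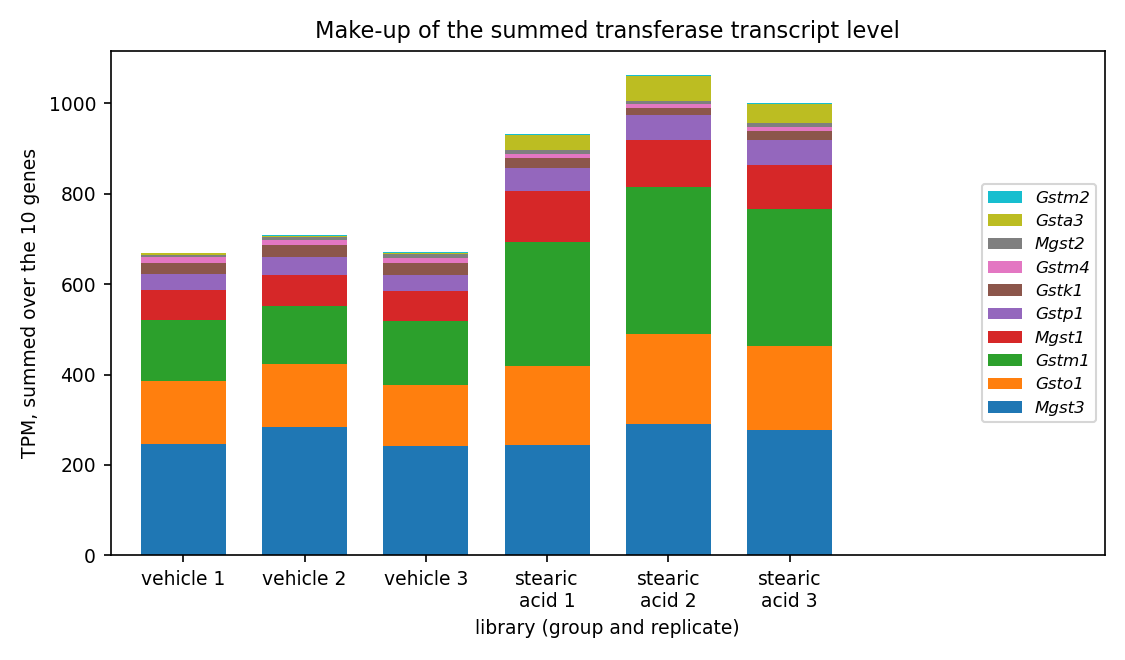
Stacked TPM of the 10 genes in each of the 6 libraries, from 0; the vehicle bars end between 670 and 708 TPM and the stearic acid bars between 932 and 1064 TPM. The green Gstm1 segment is the one that grows most in TPM.

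The stearic acid libraries differed among themselves in the size of the response. Of the 8 genes whose groups did not overlap, replicate 1 was nearest to vehicle in 6 (Gsta3, Gstm1, Gstm2, Gstp1, Gsto1 and Gstk1), and replicate 2 was farthest in 4 (Gsta3, Gstm1, Gsto1 and Gstk1). Mgst1 and Gstm4 had another order, with replicate 1 farthest and replicate 3 nearest. Over all called genes the median absolute log2 difference from the vehicle mean was 0.28, 0.60 and 0.43 in replicates 1, 2 and 3. The part of this in the members' order was not tested.

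The counts of members called depended on single libraries, which is given as a description of a chosen list. Gstm2 lost its call when replicate 1 or 2 of vehicle or replicate 3 of stearic acid was left out. Gstm4 was called in only 1 of these 6 fits, that without stearic acid replicate 1, and Gstk1 was not called without vehicle replicate 2. Leaving out vehicle replicate 2 thus left 0 members called lower, and 1 was left when replicate 1 or 3 of vehicle or replicate 2 or 3 of stearic acid was omitted. Mgst2 was called higher with median-of-ratios scaling, quantile normalization or RPKM.

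Of the 23 relatives listed, 19 had a row in the tables and 9 passed the filter, of which 1 rose, 1 fell and 7 did not pass. Among all tested genes 12.8% were called higher and 11.9% lower. The relatives too were listed with earlier results of these data known. The riser was Ptges, the inducible microsomal prostaglandin E synthase, from 2.03 ± 0.156 to 3.68 ± 0.569 TPM (log2 difference 0.62, SE 0.11, limma adjusted p = 0.0076), higher in 3 of 3 libraries. It missed the threshold without vehicle replicate 2 (limma adjusted p = 0.052). The gene that fell was Hpgds, the sigma-class enzyme that makes prostaglandin D2, from 156 ± 9.21 to 123.5 ± 16.1 TPM (log2 difference -0.34, SE 0.10, limma adjusted p = 0.035). Hpgds passed in 1 of the 6 fits that left out a library, that without stearic acid replicate 1 (limma adjusted p from 0.065 to 0.14 in the other 5), and 3 relatives fell in that fit.

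The 5-lipoxygenase activating protein gene Alox5ap, a relative of the microsomal enzymes, was the most abundant of the relatives, at 1032 ± 39.8 and 958 ± 31.3 TPM, and did not pass (limma adjusted p = 0.23). The Alox5ap groups came close without overlap, with vehicle replicate 3 at 996.1 TPM and stearic acid replicate 3 at 993.6 TPM. Over all tested genes 21.7% were lower without overlap. Ltc4s, leukotriene C4 synthase, was at 25.1 ± 0.575 and 22.6 ± 4.80 TPM (limma adjusted p = 0.37; 0.018 without stearic acid replicate 1). Gstz1, an enzyme of tyrosine breakdown, was at 22.9 ± 2.50 and 22.5 ± 0.140 TPM, and the theta-class Gstt2 was at 6.14 ± 0.111 and 5.45 ± 0.512 TPM. Gstcd, a gene with a transferase-like domain, was at 11.7 ± 0.783 and 11.3 ± 1.37 TPM. None of these 3 passed (limma adjusted p of 0.88, 0.23 and 0.73). Gstz1 and Gstcd overlap other genes at one end, so their reads may not be separable from those of Pomt2 and Ints12. Gstz1 also overlaps Gm6566. The mu-class Gstm5 overlaps 4933431E20Rik, which was at or below 0.955 TPM in every library and holds 14.4% of the 50-base words of Gstm5. Among the members, Gsta3 overlaps Gm28836 (0 TPM in every library) and Gstm4 overlaps Gm36498 (at or below 0.0411 TPM). Gstm4 and Mgst2 also overlap Gm25592 and Gm38247, for which no level is given.

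Genes that supply and use glutathione rose in part. This list and the export and NRF2 lists below were drawn up with earlier results of these data known. Their counts and p-values are therefore a description, beside the 12.8% called higher and 11.9% called lower over all tested genes. Of 19 tested, 9 rose in the limma fit, 0 fell (also 0 at an unadjusted p under 0.05) and 10 did not pass (median log2 difference 0.26, against -0.03 over all tested genes). Slc7a11, which imports cystine for glutathione synthesis, rose from 1.03 ± 0.0612 to 11.2 ± 2.53 TPM (log2 difference 2.57, limma adjusted p = 3.4e-05). Esd, which splits S-formylglutathione, rose from 350.1 ± 33.4 to 785 ± 183 TPM (log2 difference 1.14, limma adjusted p = 0.0025). Gclm, the modifier subunit of the enzyme that starts glutathione synthesis, rose from 174 ± 9.14 to 319 ± 56.0 TPM (log2 difference 0.86, limma adjusted p = 0.0028). The other 6 rises ran from log2 0.23 to 1.77. Between 6 and 10 of the list rose in the fits that left out 1 library, and 2 fell without stearic acid replicate 1.

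After conjugation, products leave the cell through transporters of the Abcc family and are trimmed by peptidases on the way to mercapturic acids. Of 11 tested genes of these steps 4 rose in the limma fit, 0 fell (2 were lower at an unadjusted p under 0.05) and 7 did not pass (median log2 difference 0.09). The shares over all tested genes were 12.8% higher and 11.9% lower. Anpep, aminopeptidase N, rose from 173 ± 11.2 to 384 ± 49.5 TPM (log2 difference 1.14, SE 0.10, limma adjusted p = 0.00033). The exporters Abcc1, from 111 ± 8.19 to 140.0 ± 14.02 TPM (limma adjusted p = 0.031), and Abcc4, from 14.9 ± 0.235 to 19.9 ± 2.41 TPM (limma adjusted p = 0.021), also rose. Acy1, which removes the acetyl group from mercapturates, rose from 1.07 ± 0.371 to 2.47 ± 1.08 TPM (limma adjusted p = 0.040). Without any 1 vehicle library, or without stearic acid replicate 3, Anpep was the only riser of this list, and 3 genes fell without stearic acid replicate 1. The gamma-glutamyl transferase Ggt1 reached no more than 0.04 TPM in any library.

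Of 10 NRF2 regulators and indicator targets 7 rose in the limma fit, 0 fell (also 0 at an unadjusted p under 0.05) and 3 did not pass (median log2 difference 0.51). Maff, 1 of the 7, is named because it passed the filter only through its stearic acid level (0.893 TPM in vehicle, 2.53 TPM with stearic acid). It could thus be counted as a riser only, and with the filter at a mean of 5 TPM 6 rose. Over all tested genes 12.8% were called higher and 11.9% lower, and this list was drawn up with earlier results known. Without 1 library, 5 to 7 rose, and 1 fell without stearic acid replicate 1. The 3 with the smallest p were Srxn1, sulfiredoxin (log2 difference 1.64, limma adjusted p = 0.00063), Nqo1, a quinone reductase (1.51, limma adjusted p = 1.0e-03), and Txnrd1, thioredoxin reductase (1.03, limma adjusted p = 0.0029). Hmox1, heme oxygenase, is named after its values were seen, as the remaining indicator target of the list. It rose from 706 ± 3.92 to 1086 ± 235 TPM (log2 difference 0.60, limma adjusted p = 0.016), but missed the threshold without the filter (0.074), without vehicle replicate 2 (0.071) and without vehicle replicate 3 (0.072). Nfe2l2, which encodes NRF2, was at 157 ± 3.61 TPM in vehicle and 145 ± 7.45 TPM with stearic acid and did not pass (limma adjusted p = 0.24). Its groups came close without overlap, with vehicle replicate 2 at 153.3 TPM and stearic acid replicate 1 at 152.5 TPM. Over all tested genes 21.7% were lower without overlap. NRF2 protein and its binding were not measured.

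**Figure D5:**
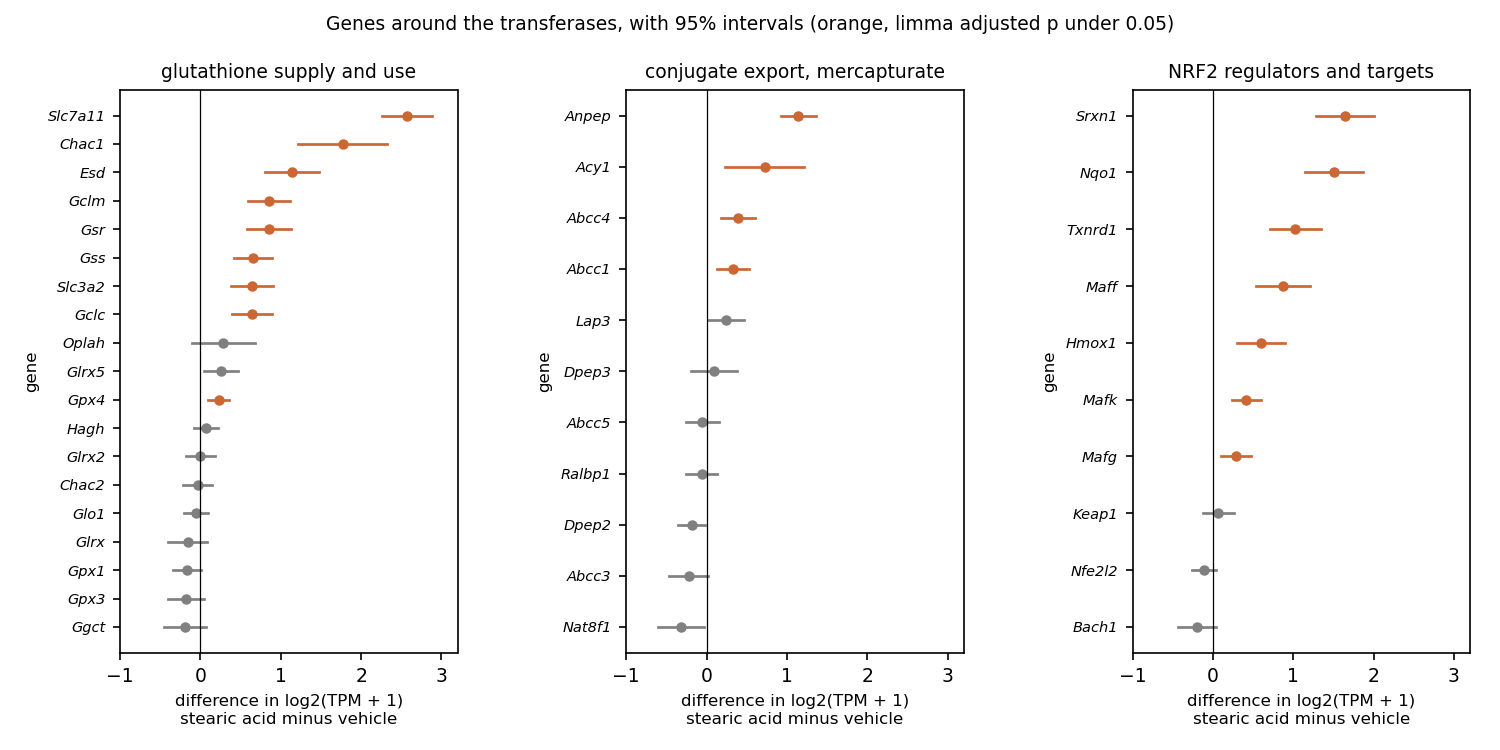
Differences in log2(TPM + 1), stearic acid minus vehicle, with 95% intervals, for the tested genes of 3 lists; orange marks a limma adjusted p under 0.05. Orange points lie only to the right of 0 in each of the 3 panels, led by Slc7a11 at 2.57, Anpep at 1.14 and Srxn1 at 1.64.

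The genes closest in pattern to Gsta3, by root mean square difference in log2 change over the 6 libraries among the 9566 genes that averaged 5 TPM or more, were Procr (0.41), Slc7a11 (0.61), Gdf15 (0.65), Serpinb9b (0.65) and Trib3 (0.67). Procr, a receptor for protein C, went from 11.5 ± 1.29 to 93.4 ± 27.7 TPM. Those closest to Gstm1 were Vat1 (0.06), Anpep (0.06), Rassf8 (0.07), Sco2 (0.07) and Cd274 (0.08). The 5 TPM were averaged over both groups. Slc7a11, Serpinb9b and Gdf15, with vehicle means of 1.03, 1.97 and 4.87 TPM, passed that filter only through their stearic acid levels. This measure is a description of likeness over libraries in 2 groups.

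Markers of the labelled cell type were abundant. The 8 macrophage markers summed to 32508 to 33422 TPM in vehicle and to 23111 to 28681 TPM with stearic acid, with 4 called lower and 1 higher. The 14 neutrophil and myeloid progenitor markers summed to 7.53 to 9.67 TPM and to 11.7 to 12.5 TPM, with 2 of the 3 tested called higher (S100a8 and Mmp8) and Retnlg at 0. S100a8 alone went from 3.33 ± 1.19 to 6.41 ± 0.467 TPM. Cebpe, also tested, was not called (2.56 ± 0.152 and 2.32 ± 0.263 TPM). The untested ones of this list stayed below 1 TPM in every library, among them S100a9 at 0.295 ± 0.365 and 0.145 ± 0.126 TPM. Sums for eosinophil, basophil and mast, dendritic, lymphoid and stromal markers were at most 5.19 TPM in any library, with Mcpt8, Tpsb2, Cd3e and Ncr1 at 0 in all. Of these lists the B cell marker Cd79b was called lower, from 2.49 ± 0.206 to 1.27 ± 0.160 TPM (log2 difference -0.62, limma adjusted p = 0.0055). The mast cell marker Kit, below the filter and not tested, was at 0.466 ± 0.0660 and 1.26 ± 0.182 TPM without overlap. Siglecf, the only tested gene of the same list, went the other way, at 4.30 ± 0.551 and 3.35 ± 0.274 TPM. Its groups did not overlap either, and it was not called (limma adjusted p = 0.080). All other genes of that list stayed below 0.22 TPM. Whether these markers have a part in the transferase differences was not tested.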

How the data were processed

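PolyA RNA was sequenced from 6 libraries, 3 per group. Per the file headers, the authors deposited TPM and RPKM values per gene. RPKM was used as an alternative and to recover depth from its steps in single-exon genes, where 91.4% to 94.9% of the values checked were whole reads within 0.02. DRAGEN and the builds GRCm38 and mm10 are named in the submitters' processing notes, while for the annotation, the counting rule and its use of strand the entry is: not given in the sources used here. The library kit marks strand, per the labels' protocols.

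From the deposited TPM, log2(TPM + 1) was fitted with limma 3.58.1 in R 4.3.3 (trended variance, treatment as the only term) for the 11551 genes averaging 1 TPM or more, with Benjamini-Hochberg adjustment over all of them and a threshold of 0.05. Groups came from the labels. The fit was checked on simulated data with scatter independent between genes and equal in both groups. That check does not cover the differences in response size among the stearic acid libraries. The members and lists were chosen with earlier results of these data known.

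All 10 members, every relative that averaged 1 TPM or more, and up to 3 called genes per direction of each other list with the smallest p (all where 5 or fewer were called) are named. The 5 genes most like Gsta3 and Gstm1 were found by root mean square difference among genes that averaged 5 TPM or more. Other relatives and markers were named after their values were seen. The low relatives were compared with two-sided exact permutation tests. Intervals and limits from reads cover counting error only.

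Promoter windows are from RefSeq (GRCm38.p6) and transcripts and coding sequences from GENCODE (GRCm38), read with Biopython 1.88. Coding sequence identity was computed in place of the protein identity that had been planned, because protein sequences were not used here. Of the gene numbers, 97.3% matched the RefSeq table. In the name column 27 names had been turned into dates, and none was a member. Gsta5, Gsta13, Gstp3 and Gstp-ps were not analysed here, and the erythroid marker list is not reported here. Alternatives were another pseudocount, filter, scaling or unit, the replicate number as a block, and leaving out each library.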

Additional observations from a re-analysis of the deposited data

How the results depend on the processing

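The ratio of the members' summed level was 1.42 to 1.51 with median-of-ratios scaling, with RPKM and without each library, the 8 alternatives computed for it. Higher calls among members numbered 5 to 7 over the 13 alternatives, a description from which nothing is read, since the list was chosen on this contrast. Without the filter on low values 672 genes were called higher and 355 lower in place of 1482 and 1374, with 1 member lower, 2 relatives higher and 0 lower, and 1 gene of conjugate export higher. With the filter at a mean of 5 TPM 0 relatives were called higher, since Ptges was not tested, and with quantile normalization 2 were called lower. Leaving out 1 library gave 384 to 2217 genes higher and 136 to 2796 lower, 0 to 2 members lower, 0 to 1 relatives higher and 0 to 3 lower. In those fits 0 to 2 genes of glutathione supply, 0 to 3 of conjugate export and 0 to 1 of the NRF2 list were lower, and 1 to 5 of conjugate export were higher. The fewest higher calls came without vehicle replicate 2, the fewest lower without vehicle replicate 3, and the most lower without stearic acid replicate 1. Apart from fewer samples or a changed set of genes, the cause was not tested. With 3 libraries a group, and some 27 to 68 reads per library for Gstm2, small differences of low genes are poorly resolved.

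The labels number the replicates in both groups, and same-numbered libraries deviated together only weakly (correlations of 0.07, 0.29 and 0.04). The value of 0.29 was the highest of any vehicle and stearic acid library, but vehicle replicate 3 correlated best with stearic acid replicate 1 (0.27). The numbers were not taken as pairs in the main fit, and these correlations do not settle whether they are. With the replicate number as a block 1641 genes were called higher and 1997 lower, with 2 relatives and 1 gene of conjugate export lower.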
